A study of Mus musculus with 24 samples.

Results

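Members of the Slc25a family were followed in the subcutaneous fat of C57BL/6J mice after loss of C/EBPα or PPARγ. The family was taken as every gene whose symbol in the array annotation begins with Slc25a. For each gene the probe with the highest mean over the 24 arrays was used, provided that it lay above background on at least 3 arrays. Of 46 such genes on the array 41 met this condition, out of 14544 genes tested in all. Slc25a13, Slc25a21, Slc25a31, Slc25a40 and Slc25a41 did not. Adn-C/EBPα-/- mice, 10 weeks old, received doxycycline for 3 days, given in chow or in high fat diet, or were 14 weeks old and had 1 month of doxycycline in high fat diet. Adn-PPARγ-/- mice, 10 weeks old, received it in chow for 3 days. Each knockout group of 3 arrays had 3 arrays of its own control littermates of the same age, and doxycycline was given to all groups as far as the design text says. The labels give neither the promoter nor the Cre system behind the knockouts nor the alleles of the controls, and do not say whether the 3 samples of a group came from different animals. The p-values therefore reflect only how these samples varied, and that variation may be technical.

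Most mitochondrial carriers sit in the inner mitochondrial membrane and exchange metabolites, nucleotides and cofactors between the matrix and the cytosol. In fat cells the citrate carrier lets mitochondrial citrate leave for the cytosol, where it yields acetyl-CoA for fatty acid synthesis, and the dicarboxylate carrier moves malate and succinate against phosphate. The uncoupling proteins Ucp1, Ucp2 and Ucp3 belong to the same structural family but carry other symbols and are not among these 41 genes, while their relatives Slc25a14, Slc25a27 and Slc25a30 are. Both C/EBPα and PPARγ drive fat cell formation as transcription factors, and the study asked, by its title, what each controls in mature adipocytes in vivo.

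Signals are intensities of Illumina BeadChip probes after background correction, in arbitrary units. Fold changes are given as log2 of knockout over control ± the limma fit's standard error, with 3 arrays per group, and a gene was called at a Benjamini-Hochberg adjusted p under 0.05 over all 14544 genes. The 4 sets of 6 arrays were normalized separately, so levels were compared only within a set. Between 51.6% and 57.0% of probes per set were above background, and arrays of the same group correlated with a median Pearson's r of 0.994. The Cebpa probe was lower in each C/EBPα knockout, by 1.00, 2.08 and 3.48 on the log2 scale on chow, at 3 days and at 1 month of high fat diet. It was lower in PPARγ knockouts too, by 1.38 on the log2 scale (adjusted p = 2.4e-06 over all probes), so its fall was not confined to C/EBPα knockouts. In the arrays labelled as PPARγ knockouts 1 Pparg probe was lower by 1.08 on the log2 scale and the other 2 were higher, by 1.10 and 1.24. In C/EBPα knockouts at 1 month all 3 Pparg probes were called lower, at -0.54, -0.60 and -1.60, and at 3 days of high fat diet 1 was, at -1.18 (log2). A probe outside the deleted part checks nothing and probe positions were not used, so "PPARγ knockout" below stands for arrays with that label. The tissue was whole fat, in which fewer cells of a type and less RNA per cell cannot be told apart.

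The carrier genes changed in both directions, and most members were not called. In PPARγ knockouts on chow 9 of the 41 members were called, beside 9.43% of all genes, 4 higher and 5 lower, beside 4.72% of all genes in each direction. Slc25a30 rose most and the dicarboxylate carrier Slc25a10 and the citrate carrier Slc25a1 fell most. In C/EBPα knockouts on chow limma called 0 of 41, beside 1.08% of all genes, and 12 members had an unadjusted p under 0.05, which is 29.3% of members against 16.4% of all genes. After 3 days of high fat diet 3 members were called in C/EBPα knockouts, beside 2.34% of all genes, 2 higher and 1 lower, beside 0.811% and 1.53%. After 1 month 10 were called, beside 18.1% of all genes, 5 higher and 5 lower, beside 9.51% and 8.62%. In all, 14 members were called in at least 1 comparison, or 34.1% of them, against 23.6% of all genes. The median member was at -0.08 in PPARγ knockouts and at 0.00, 0.03 and -0.07 in C/EBPα knockouts on chow, at 3 days and at 1 month of high fat diet (log2), and the median of all genes was at 0.01 in each. The members' own values lay on both sides of these medians.

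**Figure D1:**
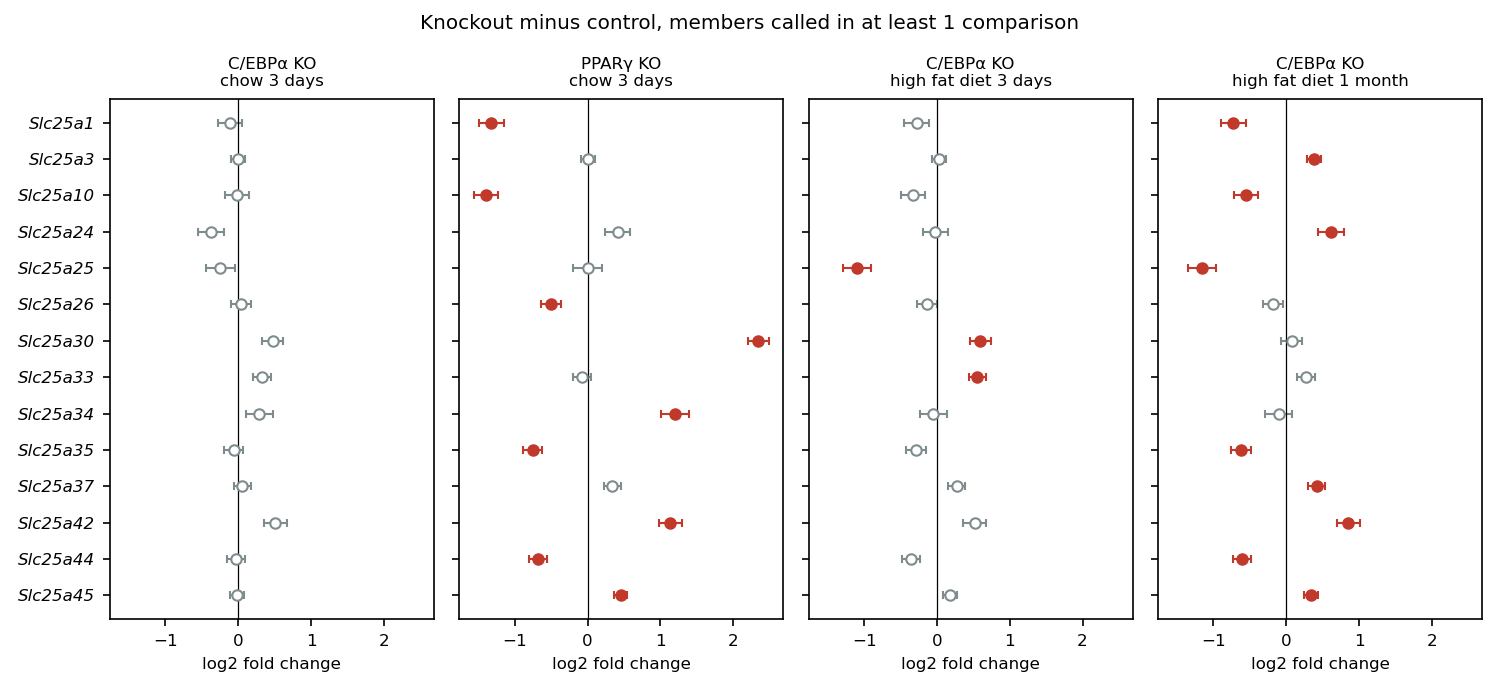
Log2 fold changes, knockout minus control, of the 14 members called in at least 1 comparison, with a panel for each comparison. Points are estimates of the limma fit, bars are ± 1 standard error (3 arrays per group), and filled red points were called. The chow C/EBPα panel holds no filled point, and Slc25a25 is filled in both high fat diet panels.

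The citrate and dicarboxylate carriers fell in PPARγ knockouts and in C/EBPα knockouts after 1 month of high fat diet, and the difference in size between these effects was not tested. Slc25a1, the citrate carrier, read 3882, 4175 and 3044 in PPARγ knockouts, against 9888, 9888 and 7924 in their controls. The groups did not overlap, and the knockout mean was 40.1% of the control mean, a log2 fold change of -1.32 ± 0.17 (adjusted p = 3.4e-05). After 1 month of high fat diet Slc25a1 read 3635, 2673 and 3195 in C/EBPα knockouts, against 4881, 5143 and 5638 in their controls. Here too every knockout array lay below every control, by 0.73 ± 0.17 on the log2 scale (adjusted p = 0.0041). On chow the arrays of the C/EBPα set overlapped, at 9072, 9515 and 8952 in C/EBPα knockouts, against 12405, 9339.5 and 8439.9 in their controls, a log2 fold change of -0.11 ± 0.17 (adjusted p = 0.793). They also overlapped after 3 days of high fat diet, at 3210.3, 4498 and 3571 in C/EBPα knockouts, against 4063, 3916 and 5815 in their controls, -0.28 ± 0.17 (adjusted p = 0.513). A second Slc25a1 probe was called lower as well, at -1.50 in PPARγ knockouts and -0.60 at 1 month (log2).

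Slc25a10, the dicarboxylate carrier, was called lower in the same 2 comparisons. It read 1031, 1197 and 945 in PPARγ knockouts, against 3014, 2467 and 2952 in their controls. The knockout mean was 37.6% of the control mean, with no overlap and a log2 fold change of -1.40 ± 0.16 (adjusted p = 9.9e-06). At 1 month it read 2458, 2431 and 2447 in C/EBPα knockouts, against 3286, 3839 and 3683 in their controls, -0.55 ± 0.16 (adjusted p = 0.0203). These groups were separate too, but the call was lost without control 2 (adjusted p = 0.0757), control 3 (0.0616), knockout 2 (0.0610) or knockout 3 (0.0525), and with the replicate number as a block (0.0520). On chow the C/EBPα set overlapped, at 2509, 2245 and 1933 in C/EBPα knockouts, against 2312, 1973 and 2450.4 in their controls, -0.01 ± 0.16 (adjusted p = 0.98). After 3 days of high fat diet it read 1623, 2557 and 1439 in C/EBPα knockouts, against 1986, 2247 and 2648 in their controls, -0.33 ± 0.16 (adjusted p = 0.39). Knockout 2 of that set was the high one, and without it the gene was called lower, at -0.57 (adjusted p = 0.0282). Slc25a11, the oxoglutarate carrier that exchanges oxoglutarate for malate, was not called in any of the 4 comparisons. Its values were 1048, 983 and 1003 in PPARγ knockouts, against 1147, 1272 and 1097 in their controls, with no overlap and a log2 fold change of -0.21 ± 0.08 (adjusted p = 0.121). On chow it read 1612, 1642 and 1534 in C/EBPα knockouts, against 1400.2, 1382 and 1432 in their controls, 0.18 ± 0.08 (adjusted p = 0.266), again without overlap but in the other direction. After 3 days and 1 month of high fat diet its groups overlapped, with 0.04 ± 0.08 (adjusted p = 0.891) and 0.07 ± 0.08 (adjusted p = 0.659). Its knockout arrays were 1192, 1215 and 1235 at 3 days, against 1095, 1180.3 and 1261 in controls, and 1627, 1436 and 1316 at 1 month, against 1419.7, 1325 and 1409 in controls. The promoter window of Slc25a10, the member with the largest fall, is shown from RefSeq (GRCm38.p6), 250 bases before to 50 after the start, with no capitals because neither element searched below was found in it.
Slc25a10 promoter, chr11:120491587-120491886, plus strand: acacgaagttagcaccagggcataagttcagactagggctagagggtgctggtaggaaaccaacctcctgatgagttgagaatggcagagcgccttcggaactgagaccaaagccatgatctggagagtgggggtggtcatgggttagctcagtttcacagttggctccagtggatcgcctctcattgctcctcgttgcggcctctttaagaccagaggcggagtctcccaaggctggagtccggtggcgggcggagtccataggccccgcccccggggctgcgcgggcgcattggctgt

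**Figure D2:**
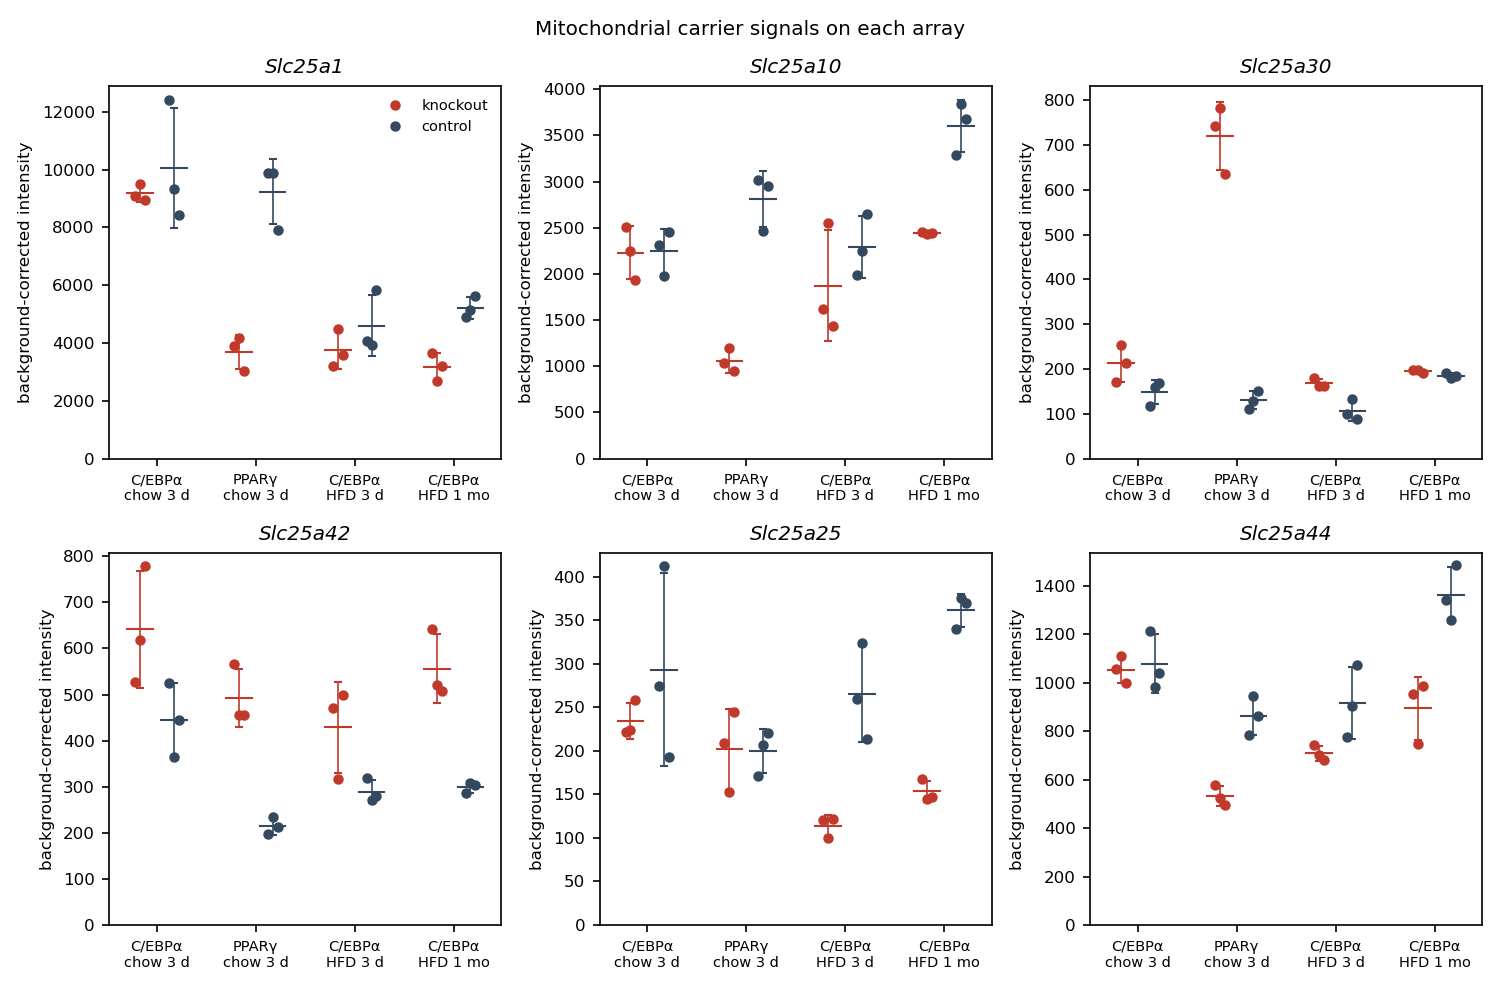
Background-corrected intensity (arbitrary units, linear axis from 0) of 6 members on each of the 24 arrays, knockouts in red left of their controls in grey, with group means and ± SD (n = 3). Slc25a1 and Slc25a10 lie apart from their controls in PPARγ knockouts and at 1 month, Slc25a30 stands out in PPARγ knockouts, and Slc25a25 is low in C/EBPα knockouts on high fat diet. Levels of different sets are not comparable.

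Among the carriers of adenine nucleotides and phosphate, Slc25a25 fell in C/EBPα knockouts after 3 days and after 1 month of high fat diet and was not called in either comparison on chow. Slc25a25 exchanges ATP-Mg for phosphate and is opened by calcium. After 3 days of high fat diet it read 120.3, 100.2 and 122 in C/EBPα knockouts, against 259, 324 and 214 in their controls. After 1 month it read 168, 145 and 147 in C/EBPα knockouts, against 339, 375 and 369 in their controls. In both settings all knockout arrays lay below all controls, with log2 fold changes of -1.10 ± 0.19 (adjusted p = 0.0026) and -1.16 ± 0.19 (adjusted p = 2.1e-04), and the knockout means were 43% and 42.4% of the control means. Both calls were kept whichever array was left out, with a highest adjusted p of 0.0235 at 3 days and 0.00173 at 1 month. In the PPARγ set the groups overlapped, at 209, 152 and 244 in PPARγ knockouts, against 171, 207 and 220.3 in their controls, with a log2 fold change of 0.00 ± 0.19 (adjusted p = 1). On chow the C/EBPα set read 221, 224 and 258 in C/EBPα knockouts, against 274, 412 and 193 in their controls, -0.24 ± 0.19 (adjusted p = 0.571), with the controls the more spread. The difference between high fat diet and chow at 3 days was -0.85 ± 0.28 (adjusted p = 0.245) and was not called, and the difference from the PPARγ effect was tested on chow only (0.24 ± 0.28 (adjusted p = 0.677)).

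RefSeq gives Slc25a25 3 promoter windows, and 2 of them hold a C/EBP element (TTGCNNAA, read on either strand). They are shown as windows of a called member that hold this element, with the element in capitals, ending 111 and 152 bases before the start. It was found in 3 of the 41 member windows, beside 10.8% of all windows. Slc25a12, the other member with it, was not called in any comparison. A part of the element in the fall of Slc25a25 was not tested.
Slc25a25 promoter, chr2:32424017-32424316, minus strand: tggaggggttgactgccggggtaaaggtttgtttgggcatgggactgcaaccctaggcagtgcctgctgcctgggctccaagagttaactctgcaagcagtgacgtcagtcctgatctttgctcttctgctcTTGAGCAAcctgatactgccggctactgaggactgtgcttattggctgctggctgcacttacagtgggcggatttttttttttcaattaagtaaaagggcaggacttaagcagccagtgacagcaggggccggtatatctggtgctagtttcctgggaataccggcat
Slc25a25 promoter, chr2:32431102-32431401, minus strand: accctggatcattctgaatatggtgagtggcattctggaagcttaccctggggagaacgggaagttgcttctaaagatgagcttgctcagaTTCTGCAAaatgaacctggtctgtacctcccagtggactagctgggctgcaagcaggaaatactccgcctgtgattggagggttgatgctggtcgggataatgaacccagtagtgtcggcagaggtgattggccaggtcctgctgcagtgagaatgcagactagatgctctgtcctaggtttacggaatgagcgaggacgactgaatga

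Slc25a42, which carries coenzyme A and ADP, rose in PPARγ knockouts and at 1 month. It read 565, 456 and 455 in PPARγ knockouts, against 197, 234 and 213 in their controls, 1.14 ± 0.16 (adjusted p = 1.0e-04). At 1 month it read 641, 521 and 507 in C/EBPα knockouts, against 286, 308 and 304 in their controls, 0.85 ± 0.16 (adjusted p = 6.8e-04). The arrays did not overlap in either comparison, nor on chow, where the values were 527, 618 and 779 in chow-fed C/EBPα knockouts, against 525, 364 and 444 in their controls, 0.51 ± 0.16 (adjusted p = 0.121). At 3 days of high fat diet knockout 2 lay among the controls, with 471, 316 and 499 in C/EBPα knockouts, against 318, 270.3 and 279.8 in their controls, 0.52 ± 0.16 (adjusted p = 0.112), and without it the gene was called (0.72, adjusted p = 0.0143). Slc25a42 had 3 other probes in the fit, each at background on some arrays. They were at -0.01 to 0.28 in PPARγ knockouts and 0.05 to 0.32 at 1 month (log2), none called, so the rise rests on 1 probe.

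Slc25a3, the phosphate carrier that supplies ATP synthase, was called at 1 month alone. It read 2274, 2229.8 and 2829 in C/EBPα knockouts after 1 month of high fat diet, against 1776, 1935 and 1892 in their controls, without overlap, 0.38 ± 0.10 (adjusted p = 0.00934). Knockout 3 was the highest array and the call was lost without it (0.27, adjusted p = 0.0760) and in a fit on the 6 arrays of the set (0.0594). A second probe was at 0.19 and not called. In the other sets the groups overlapped. PPARγ knockouts read 1871, 2079 and 2107, against 2190.0, 2043 and 1817 in controls, chow-fed C/EBPα knockouts 5487, 5848 and 5349, against 5297, 5923 and 5518, and those on high fat diet for 3 days 1362, 1448 and 1679, against 1463, 1475 and 1432. Fold changes there were 0.00 ± 0.10, 0.00 ± 0.10 and 0.03 ± 0.10. Slc25a24, an ATP-Mg and phosphate carrier related to Slc25a25, was higher at 1 month, 0.62 ± 0.17 (adjusted p = 0.016). The call was lost without control 1 (0.0691), control 3 (0.0541), knockout 1 (0.0635) or knockout 2 (0.0549), and 2 other probes of the gene were at 0.06 and 0.10. Slc25a5, the adenine nucleotide translocase that exchanges ADP for ATP, was not called in the PPARγ knockouts, at -0.23 ± 0.08 (adjusted p = 0.0648), although its arrays did not overlap. It passed the threshold there without background correction (0.0175), with an offset of 50 (0.0289) and with the filter at 12 arrays (0.0495). Array weights (0.0341) and precision weights (0.0349) also brought the call.

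Of the amino acid carriers Slc25a44, which takes up branched-chain amino acids, was the one called. It read 576, 524 and 496 in PPARγ knockouts, against 784, 944 and 861 in their controls, -0.68 ± 0.12 (adjusted p = 8.8e-04). At 1 month it read 953, 746 and 986 in C/EBPα knockouts, against 1342, 1259.8 and 1488 in their controls, -0.61 ± 0.12 (adjusted p = 0.00104). Its arrays were also separate at 3 days of high fat diet, with 742, 701 and 683 in C/EBPα knockouts, against 777, 903 and 1072 in their controls, but that difference was not called (-0.35 ± 0.12 (adjusted p = 0.154)). On chow the C/EBPα set overlapped, at 1056, 1109 and 999 in C/EBPα knockouts, against 1215, 982 and 1042 in their controls, -0.03 ± 0.12 (adjusted p = 0.933). Slc25a44 was lower in the knockouts in all 4 estimates, and the calls in PPARγ knockouts and at 1 month were kept without each array. The other 7 amino acid carriers tested, among them the aspartate and glutamate carrier Slc25a12, were not called.

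Of the 3 members grouped with acylcarnitine carriers, Slc25a45 rose in PPARγ knockouts (0.45 ± 0.09 (adjusted p = 0.00363)) and at 1 month (0.34 ± 0.09 (adjusted p = 0.0149)), where the call was lost without control 1 (0.0678), without knockout 2 (0.0859) and with the replicate block (0.0646). Slc25a20, the carnitine and acylcarnitine carrier that admits long-chain fatty acids for oxidation, was not called on the probe used, at -0.16 ± 0.15 (adjusted p = 0.583) in PPARγ knockouts and 0.19 ± 0.15 (adjusted p = 0.45) at 1 month. Another Slc25a20 probe was called higher at 1 month (0.47, adjusted p = 0.0223 over all probes).

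Among the carriers of cofactors, pyrimidine nucleotides, iron and glutathione, 3 of the 10 tested were called, each in 1 comparison. Slc25a26, which brings S-adenosylmethionine into the matrix, fell in PPARγ knockouts by 0.51 ± 0.14 on the log2 scale (adjusted p = 0.022). That call was lost without control 1 (0.0688), control 2 (0.110) or knockout 2 (0.116). Slc25a33, a pyrimidine nucleotide carrier, rose in C/EBPα knockouts after 3 days of high fat diet, with 1283, 1192 and 1307 in C/EBPα knockouts after 3 days of high fat diet, against 757, 843 and 969.6 in their controls, 0.56 ± 0.12 (adjusted p = 0.0132). No arrays overlapped, but the call was lost without control 1 (0.0806), control 2 (0.0541), knockout 1 (0.0554) or knockout 3 (0.0673) and in a fit on the set's own arrays (0.0949). On chow Slc25a33 was separate in the same direction, with 1729.8, 1487 and 1583 in C/EBPα knockouts, against 1361, 1179.7 and 1272 in their controls, 0.33 ± 0.12 (adjusted p = 0.177). At 1 month 1 knockout array, at 1083, lay among the controls, the other knockout arrays reading 1629 and 1506 and the controls 1214, 1069.6 and 1161 (0.27 ± 0.12 (adjusted p = 0.142)), and without it the gene was called (0.44, adjusted p = 0.00674). PPARγ knockouts read 758, 729 and 653, against 739, 747 and 769 in controls, -0.08 ± 0.12 (adjusted p = 0.792). Slc25a37, mitoferrin 1, which imports iron, rose at 1 month by 0.42 ± 0.12 (adjusted p = 0.0144). The call was lost without control 1 (0.0562) or knockout 2 (0.0584), and a second probe was at -0.14. In PPARγ knockouts Slc25a37 missed the threshold, at 0.34 ± 0.12 (adjusted p = 0.0687). It passed there without background correction (0.0336), with an offset of 50 (0.0427) and with array weights (0.0327). Precision weights (0.0357) and a fit on the set's own arrays (0.0469) also brought the call.

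Slc25a30, a carrier related in sequence to the uncoupling proteins, had the largest fold change of the family in these comparisons. It read 743, 782 and 636 in PPARγ knockouts, against 110.3, 128 and 151 in their controls. All knockout arrays lay far above all controls, and the knockout mean was 555% of the control mean, a log2 fold change of 2.34 ± 0.14 (adjusted p = 3.0e-09). Leaving out any 1 array kept it between 2.24 and 2.44. At 3 days of high fat diet C/EBPα knockouts were higher too, with 179, 163 and 162 in C/EBPα knockouts, against 99.7, 132 and 88.2 in their controls, 0.60 ± 0.14 (adjusted p = 0.0285). This call was lost without control 1 (0.108), control 3 (0.181), knockout 1 (0.116) or knockout 3 (0.0758) and in a fit on the set's own arrays (0.136). On chow the C/EBPα set was separate in the same direction but not called, at 171, 254 and 213 in C/EBPα knockouts, against 118, 160.3 and 168 in their controls, 0.47 ± 0.14 (adjusted p = 0.109). At 1 month knockouts and controls were nearly level, with 198, 199 and 191 in C/EBPα knockouts, against 191, 180.0 and 185 in their controls, 0.07 ± 0.14 (adjusted p = 0.821). The change in the C/EBPα effect on Slc25a30 between 3 days and 1 month was -0.52 ± 0.20 (adjusted p = 0.27) and was not called. Slc25a14 and Slc25a27, the other members of this group, were not called. The Slc25a30 promoter window is shown as that of the member with the largest rise, and neither full element was found in it.
Slc25a30 promoter, chr14:75786988-75787287, minus strand: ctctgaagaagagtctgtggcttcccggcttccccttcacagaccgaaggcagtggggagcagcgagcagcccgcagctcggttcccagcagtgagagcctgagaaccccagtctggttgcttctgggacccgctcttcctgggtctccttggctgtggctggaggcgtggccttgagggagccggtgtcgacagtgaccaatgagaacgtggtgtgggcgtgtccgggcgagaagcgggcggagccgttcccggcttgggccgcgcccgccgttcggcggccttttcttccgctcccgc

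The members of uncertain cargo included a gene that rose and a gene that fell. Slc25a34 read 74.8, 63.1 and 57 in PPARγ knockouts, against 16.3, 26.4 and 15.6 in their controls, 1.20 ± 0.19 (adjusted p = 2.8e-04), dim but separate and above background on all 6 arrays. Its log2 fold change was 0.42 without background correction, where it was still called. The rise rests on 1 probe, since 2 others of the gene were above background on 2 arrays each and failed the filter. In the 3 C/EBPα sets the arrays of Slc25a34 overlapped. They read 34.9, 48.1 and 27 in knockouts on chow, against 20.4, 33.7 and 26.5 in controls, 28.3, 27.1 and 37.4 at 3 days of high fat diet, against 28.3, 35.9 and 33.3, and 30.2, 30.4 and 10.3 at 1 month, against 22.6, 28.6 and 24.6. Slc25a35 fell in PPARγ knockouts, with 415, 388 and 315 in PPARγ knockouts, against 650.0, 680.4 and 583 in their controls, -0.76 ± 0.13 (adjusted p = 9.2e-04), and at 1 month, with 613, 428 and 606 in C/EBPα knockouts after 1 month of high fat diet, against 865, 784 and 885 in their controls, -0.62 ± 0.13 (adjusted p = 0.00207). Neither comparison had overlapping arrays, and both calls were kept without each array. At 3 days of high fat diet it was separate but not called, with 479.5, 539 and 477 in C/EBPα knockouts, against 572, 542 and 737 in their controls, -0.29 ± 0.13 (adjusted p = 0.343), and on chow it read 862, 858 and 1029.6 in chow-fed C/EBPα knockouts, against 951, 913 and 1001 in their controls, -0.06 ± 0.13 (adjusted p = 0.858).

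The remaining 27 members were called in none of the 4 comparisons. Their log2 fold changes lay between -0.28 and 0.28 in PPARγ knockouts and, in C/EBPα knockouts, between -0.47 and 0.30 on chow, -0.31 and 0.24 at 3 days and -0.43 and 0.26 at 1 month of high fat diet. Of all 41, 32 were above background on all 24 arrays and 9 on fewer. Slc25a2 and Slc25a43, on 3 arrays each, were just inside the filter, and Slc25a40 and Slc25a41, on 1 array each, just outside. Fold changes of such dim genes are understated. Slc25a4, the other adenine nucleotide translocase on the array that was tested, was above background on the 6 chow C/EBPα arrays alone, at 68.3, 59.2 and 85.3 in knockouts, against 51.3, 59.8 and 60.2 in controls.

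Knockout and control arrays did not overlap for 16 members in the PPARγ set, beside 30% of all genes. In the C/EBPα sets they did not overlap for 12 members on chow, beside 17.9% of all genes, for 12 at 3 days, beside 18.5%, and for 19 at 1 month of high fat diet, beside 33.9%. In the PPARγ set 5 of these members lay above their controls and 11 below, 12.2% and 26.8% of the 41, beside 16.7% and 13.3% of all genes. In the C/EBPα set on chow 7 lay above and 5 below, 17.1% and 12.2%, beside 9.6% and 8.26%. The set at 3 days of high fat diet also had 7 above and 5 below, beside 8.9% and 9.57%. At 1 month 9 lay above and 10 below, 22.0% and 24.4%, beside 17.8% and 16.1%.

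The effect of PPARγ loss differed from that of C/EBPα loss on chow at 3 days for 4 members, beside 3.07% of all genes, by a test of the difference itself. The PPARγ effect was the higher for 1, beside 1.31% of all genes, and the lower for 3, beside 1.77%. Slc25a30 was higher by 1.87 ± 0.20 (adjusted p = 2.4e-05) and Slc25a10, Slc25a1 and Slc25a44 were lower, at -1.39 ± 0.23 (adjusted p = 0.00194), -1.21 ± 0.24 (adjusted p = 0.00864) and -0.65 ± 0.17 (adjusted p = 0.04) (log2 difference of the 2 effects, each against its own controls). The Slc25a44 difference was lost without any 1 of 9 arrays, that is all arrays of the 2 sets but control 1 of each and PPARγ knockout 1 (adjusted p = 0.0543 to 0.115), and with every probe tested (0.0527), each contrast's own arrays (0.0524), the replicate block (0.0835) or precision weights (0.0591). Slc25a35 missed the threshold, at -0.69 ± 0.19 (adjusted p = 0.0503). For Slc25a34 the difference was 0.91 ± 0.26 (adjusted p = 0.0647), for Slc25a42 0.63 ± 0.23 (adjusted p = 0.144) and for Slc25a45 0.47 ± 0.13 (adjusted p = 0.0616), so these are not shown to differ. The sets were normalized separately, and the labels give no other batch. Cebpa was still at 48.1% of its control mean in chow-fed C/EBPα knockouts, and at 37.4% in PPARγ knockouts. It was at 21.3% and 7.3% in C/EBPα knockouts at 3 days and 1 month of high fat diet. The degree of loss cannot be told apart here from which factor was lost, and its part was not tested.

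**Figure D3:**
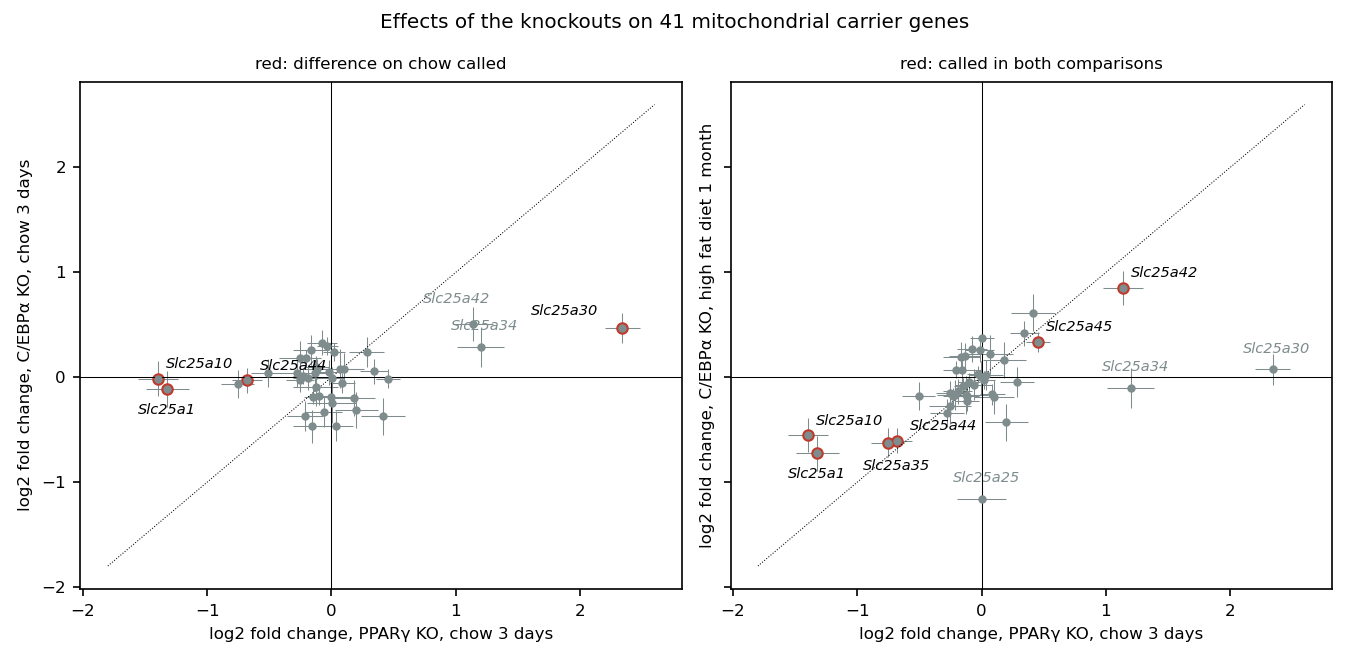
Log2 fold changes of the 41 members in PPARγ knockouts on chow (horizontal axes) against those in C/EBPα knockouts (vertical axes) on chow (left) and after 1 month of high fat diet (right), with bars of ± 1 standard error and equal effects on the dotted line. On the left, red marks the 4 members whose effects differed by test. On the right, red marks the 6 members called in both comparisons, and Slc25a30 and Slc25a25 each lie near 0 on 1 axis.

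The same test found 0 members whose C/EBPα effect differed between high fat diet and chow at 3 days, beside 0.0688% of all genes, with 4 at an unadjusted p under 0.05 in limma (9.76% of members, 11.6% of all genes). Between 1 month and 3 days of high fat diet it found 0 as well, beside 1.8% of all genes, with 6 at an unadjusted p under 0.05 (14.6% against 12.3%). No member is thus shown to respond differently at 1 month than at 3 days.

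PPARγ knockouts on chow and C/EBPα knockouts at 1 month, which have no samples in common, shared 6 called members, beside 4.76% of all genes. These are 66.7% of the 9 and 60.0% of the 10, beside 50.5% and 26.3% of the calls over all genes. All 6 moved the same way, Slc25a1, Slc25a10, Slc25a35 and Slc25a44 lower and Slc25a42 and Slc25a45 higher, and over all genes 646 of 693 shared calls did. Pearson's r of the fold changes over the 41 members was 0.51 and over all genes 0.40, a description across genes, which are not independent. Slc25a30, Slc25a34 and Slc25a26 were called in PPARγ knockouts and not at 1 month, and Slc25a25, Slc25a3, Slc25a24 and Slc25a37 at 1 month and not in PPARγ knockouts. The difference between these 2 comparisons was not tested. C/EBPα knockouts at 3 days and 1 month of high fat diet shared 1 called member, Slc25a25, beside 2.05% of all genes. That is 33.3% of the members called at 3 days and 10% of those at 1 month. Over all genes the shares were 87.4% and 11.3%.

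Genes around the carriers moved as follows. Their counts stand beside 4.72% of all genes called higher and 4.72% lower in PPARγ knockouts. At 1 month of high fat diet 9.51% of all genes were called higher and 8.62% lower. Of 10 tested genes for citrate export and its use in the cytosol, 7 were lower in PPARγ knockouts and 5 at 1 month of high fat diet, and none was higher. The list's median was -0.65 in PPARγ knockouts and -0.40 at 1 month (log2). Srebf1, which drives lipogenic genes, was at -1.18 ± 0.15 and -0.50 ± 0.15, pyruvate carboxylase Pcx at -1.11 ± 0.12 and -0.76 ± 0.12 and fatty acid synthase Fasn at -1.22 ± 0.25 and -0.94 ± 0.25, each called in both. Acly, which splits exported citrate, fell in PPARγ knockouts by 0.67 ± 0.18 on the log2 scale (adjusted p = 0.0197) and was at -0.14 at 1 month (adjusted p = 0.708).

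Respiratory chain and citrate cycle genes were lower for 9 of 23 in PPARγ knockouts, beside 4.72% of all genes, with a median of -0.29. At 1 month 3 of 23 were higher, beside 9.51% of all genes, with a median of 0.12. Atp5a1, an ATP synthase subunit, was called in both, at -0.56 ± 0.12 in PPARγ knockouts and 0.38 ± 0.12 at 1 month. Of 8 genes for mitochondrial biogenesis 3 were lower in PPARγ knockouts, Ppargc1a, Ppargc1b and Esrra, and at 1 month limma called 0, with 0 at an unadjusted p under 0.05. In the carnitine shuttle and fatty acid oxidation list 1 of 11 was lower in PPARγ knockouts (Crat, -0.63 ± 0.14) and 2 were higher at 1 month (Hadhb, 0.79 ± 0.17, and Acaa2, 0.75 ± 0.14). Of the 5 shuttle genes tested 3 were lower in PPARγ knockouts, and at 1 month Got2 was higher and Mdh1 lower. Among 9 other mitochondrial transport genes the uncoupling protein Ucp3 was higher in PPARγ knockouts (0.80 ± 0.19) and Mtch2, Vdac2 and Sfxn1 were lower, and Mtch2 was lower at 1 month as well (-0.39 ± 0.09). Of the 62 different genes in these 6 lists limma called 24 in PPARγ knockouts, or 38.7%, beside 9.43% of all genes. At 1 month it called 12, or 19.4%, close to the 18.1% of all genes. In C/EBPα knockouts on chow and at 3 days of high fat diet it called 0, beside 1.08% and 2.34% of all genes, and 8 and 9 had an unadjusted p under 0.05.

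Cell type markers changed too, and their counts stand beside these shares of all genes. In PPARγ knockouts 4.72% were called higher and 4.72% lower, and at 1 month of high fat diet 9.51% and 8.62%. At 3 days of high fat diet the shares were 0.811% higher and 1.53% lower. In C/EBPα knockouts on chow 1.08% were called in either direction. Adipocyte markers were lower for 10 of 13 in PPARγ knockouts, where their summed intensity was 94570 to 97620 against 114757 to 123401 in controls, and for 11 of 13 at 1 month, where it was 86659 to 95080 against 122577 to 134548. They were lower for 3 of 13 at 3 days of high fat diet and 1 of 13 on chow. Adipoq, the defining adipocyte marker, was above background on every array, with 7399 as its lowest value. Macrophage markers were higher for 10 of 10 at 1 month, with sums of 18174 to 25419 against 11517 to 12435, and for 3 of 10 in PPARγ knockouts, with sums of 14691 to 17471 against 12099 to 13293. At 3 days of high fat diet 1 of 10 was higher, and on chow limma called 0, with 1 at an unadjusted p under 0.05. Brown fat markers were higher for 3 of 8 and lower for 1 at 1 month, with sums of 49691 to 60459 against 29541 to 36565, and lower for 2 of 8 in PPARγ knockouts. Stromal markers were higher for 5 of 7 at 1 month and 2 of 7 in PPARγ knockouts, and 2 of 6 endothelial markers were lower at 1 month. Of 10 skeletal muscle markers limma called 0 in each comparison, with 1 at an unadjusted p under 0.05, in PPARγ knockouts, but their summed intensity varied between arrays, from 6115 to 37900 in PPARγ knockouts, against 14941 to 61597 in controls. Of 5 lymphocyte and 4 epithelial markers it called 0 in each comparison, with up to 1 and 2 at an unadjusted p under 0.05. Cfd and Cd68 of these lists were above background on too few arrays to be tested. The part of these cell types in the carrier results was not tested.

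RefSeq (GRCm38.p6) holds promoter windows of 300 bases for 32 of the 41 members, 41 windows in all. The C/EBP element TTGCNNAA was found, on either strand, in 3 windows of 2 members, Slc25a12 and Slc25a25, and in 10.8% of all 32851 windows. The PPAR element, AGGTCA repeated after 1 base of any kind, was found in 0 member windows and in 0.0396% of all. The single AGGTCA, which overlaps the full PPAR element and was searched after seeing the data, was in windows of 4 members, Slc25a34, Slc25a39, Slc25a45 and Slc25a47, and in 16.3% of all. These matches describe letters in these windows and are not sites of binding.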

How the data were processed

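RNA of whole subcutaneous fat was read on 24 Illumina BeadChip arrays, in 8 groups of 3 taken from the sample titles, since controls carry the knockout's entry in the genotype field. The authors deposited 1 intensity per probe and array for 45281 probes. The scanner software is not stated, and the normalization was read from the values, which were quantile-normalized in 4 sets of 6 arrays without background subtraction. The set medians were 110 to 151, close to estimated backgrounds of 104 to 132, which limits dim probes, and the number of arrays limits the precision. A deposited table of 96 per-array columns before normalization was not used, since its names match no sample.

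The background of each set was taken at the peak of its log2 intensities, and signals were corrected with the normexp model, raised by an offset of 16 and put on the log2 scale, which understates the change of dim genes. Probes above background (5% false positives) on at least 3 arrays were kept (30257). In the platform annotation 34885 probes had 1 symbol, 18 had several and 10378 had no entry. Entrez identifiers, of which 34807 were found in RefSeq's gene table, gave current symbols. The 14544 genes had 1 probe each.

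Limma 3.58.1 in R 4.3.3 was fitted on the 8 group means (lmFit, eBayes, two-sided, Benjamini-Hochberg over all genes), with 4 knockout comparisons and 3 differences between effects. It was tested on simulated data. For a second probe of a gene, p was adjusted over all probes. Per-array values are printed for the called members with the up to 6 smallest adjusted p of a comparison and for the citrate and dicarboxylate carriers. Other called members have a fold and p, and members never called a range. Members, lists and tests were chosen with earlier results of these data known. Alternatives covered background, offset, normalization, filters, probes, arrays in the fit, replicate block, weights, threshold and leaving out each array.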

Additional observations from a re-analysis of the deposited data

Results flagged for a closer look

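The effects of PPARγ loss and C/EBPα loss on chow, each taken against its own controls at 3 days, differed by test for 4 carrier genes. The difference of the log2 effects was 1.87 for Slc25a30, with an effect of 2.34 in PPARγ knockouts and 0.47 in C/EBPα knockouts. It was -1.39 for Slc25a10, with an effect of -1.40 in PPARγ knockouts and -0.01 in C/EBPα knockouts. It was -1.21 for Slc25a1, with an effect of -1.32 in PPARγ knockouts and -0.11 in C/EBPα knockouts. It was -0.65 for Slc25a44, with an effect of -0.68 in PPARγ knockouts and -0.03 in C/EBPα knockouts. Without each array in turn the highest adjusted p of the difference was 1.8e-04 for Slc25a30, 0.00794 for Slc25a10, 0.0296 for Slc25a1 and 0.115 for Slc25a44. Cebpa was still at 48.1% of its control mean in these C/EBPα knockouts, and the part of the degree of loss in these differences was not tested.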

How the results depend on the processing

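Over the alternatives, the 26 member calls and differences reached 321 results of the same direction and side of the threshold, 17 no longer past it and 0 of the other sign, and without single arrays 591, 33 and 0. The counts without single arrays include removals of arrays from other sets, which leave the fold change as it is. All 33 losses came without an array of the comparison's own sets. Of the 26 results, 9 were lost without at least 1 array. On chow the count in C/EBPα knockouts was 1 with an offset of 50 (Slc25a53, 0.25), 1 with every probe tested (a Slc25a20 probe at -0.40, at least 1.16-fold lower with all knockout arrays at background, against 0.26 on the probe used) and 0 to 1 without single arrays (Slc25a48 lower without knockout 2). At 3 days of high fat diet it was 1 with the set's own arrays, 1 at an adjusted p under 0.01, and 1 to 5 without single arrays: 1 without control 1, knockout 1 or knockout 3 and 5 without knockout 2, which added Slc25a10 and Slc25a42. At 1 month it was 6 at an adjusted p under 0.01 and 7 to 11 without single arrays, and in PPARγ knockouts 8 to 10. The PPARγ and C/EBPα effects on chow differed for 8 members without background correction, 8 with an offset of 50 and 3 to 6 without single arrays, and the other 2 differences were called for 0 members without each array. The cause was not tested. With no filter 46 members, and with the background peak on the linear scale, added after seeing the data, 42 members were tested.

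Same-numbered knockouts and controls did not deviate together (correlations of -0.26 to 0.10, and -0.21 to 0.28 for different numbers). No pairing by replicate number was thus seen, but with 3 arrays per group this check cannot exclude one. With the replicate block the counts of members called were 0, 9, 3 and 8 for C/EBPα on chow, PPARγ on chow and C/EBPα at 3 days and 1 month of high fat diet, and 3, 0 and 0 for the differences.

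Over all genes, the C/EBPα count on chow was 157 in the fit reported, 295 without background correction, 342 with an offset of 50, 261 with every probe, 87 after quantile normalization over all arrays, 66 with the replicate block, 56 with array weights and 1 with the set's own arrays. At 3 days of high fat diet it was 341, against 617 with array weights, 227 with the block and 78 with the set's own arrays.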
